A study of Saccharomyces cerevisiae with 12 samples.

Results

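The response of a yeast pat1 mutant to the cell wall dye Congo Red was followed over 5449 genes, each read by a probe set with 1 gene symbol. The response is the log2 signal with drug minus the log2 signal without drug within each of 3 biological samples, so 6 of the 12 arrays of the study carry it. The other 6 arrays hold the parent strain, BY4741, under the same growth conditions, and they share the estimate of the spread. Every culture was haploid Saccharomyces cerevisiae, diluted to an optical density of 0.2, grown to 0.5 and then kept for another 2 h. In the treated cultures Congo Red was present at 30 µg/ml over those 2 h, and the untreated cultures had no drug. The mutant is named in the labels as pat1, and neither the allele nor the number of clones is given, so the arrays describe the mutant stock that was grown. Total RNA was measured on Affymetrix arrays, 3 per strain and treatment.

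Congo Red binds chitin and glucan chains and disturbs the assembly of the yeast cell wall. Yeast senses wall damage with surface proteins of the Wsc and Mid families, which act through the GTPase Rho1, protein kinase C and a kinase cascade that ends in Slt2. Slt2 turns on the transcription factor Rlm1, whose targets encode wall proteins and wall enzymes. Pat1 binds deadenylated messenger RNA together with the Lsm1 to Lsm7 ring and promotes removal of the cap, after which the RNA is degraded. Array values are levels at 1 time, so synthesis and decay of a transcript were not measured apart.

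PAT1 signal was 3.86, 3.01 and 3.39 on the untreated mutant arrays of samples 1, 2 and 3 and 3.94, 2.95 and 3.21 on the treated ones, against 10.50 to 10.93 on the 6 wild type arrays. The mutant arrays carried the mating type of BY4741: the 6 markers of a cells (STE2, MFA1, MFA2, BAR1, AGA2, STE6) read 10.96 to 13.66, while the alpha markers STE3, MF(ALPHA)1 and MF(ALPHA)2 read 3.74 to 7.33. Of the genes deleted in BY4741, LEU2 and MET17 read 2.95 to 4.16 on the mutant arrays. URA3, also deleted in BY4741, read 6.76 on the untreated array of sample 1 and 2.94 to 3.27 on the other 5, so that array went against its label for this gene. Its partner with drug was not raised. HIS3, which is only partly deleted in BY4741, read 10.84 to 11.18. Changes printed below that moved by over 1.5 times without sample 1 are also given without it, and 75 of the 126 genes described next passed without it. Array medians were 9.54 to 9.58 on 5 mutant arrays and 9.70 on the treated array of sample 3.

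Congo Red raised 107 genes and lowered 19 in the mutant. These 126 genes are 2.31% of all genes tested (1.96% higher and 0.349% lower), at a Benjamini-Hochberg adjusted p under 0.05 in limma with the biological sample as a block. The rises were led by KDX1, SRL3, CRG1, PIR3 and PRM5, between 3.80-fold and 8.13-fold, and 19 of the 107 reached 2-fold (0.349% of all genes). In these bulk cultures a change in RNA per cell and a change in the share of cells with the transcript cannot be told apart. Among the falls, only CYC7 and YER053C-A, 0.0367% of all genes, reached 2-fold. The median change was 0.64 on the log2 scale among the genes that rose and -0.58 among those that fell, against 0.041 over all genes. The rises had a minimum of 0.34. In all 126 genes the 3 samples moved the same way, as they did in 34.2% of all genes. The 126 were chosen on these same changes, so their shared direction is no independent evidence.

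The pairing of arrays within samples had a strong bearing on the count. Without the block the test passed 36 genes (0.661%). Each of the 36 was higher with drug and among the 126, and no gene fell past the test. At an unadjusted p under 0.05 the paired fit held 957 genes (17.6%) and the unpaired fit 305 (5.60%). Signals with and without drug did not overlap in 94 of the 107 genes that rose but in only 4 of the 19 that fell, against 6.85% and 1.3% of all genes. Since these genes were chosen on the same signals, the counts only describe them. The count also rested on single samples: it was 81 without sample 1, 84 without sample 2 and 72 without sample 3. Of the 126 genes, 46 passed in all 3 of these fits. All 126 kept their direction, which was fixed in advance because their 3 samples moved the same way.

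**Figure D1:**
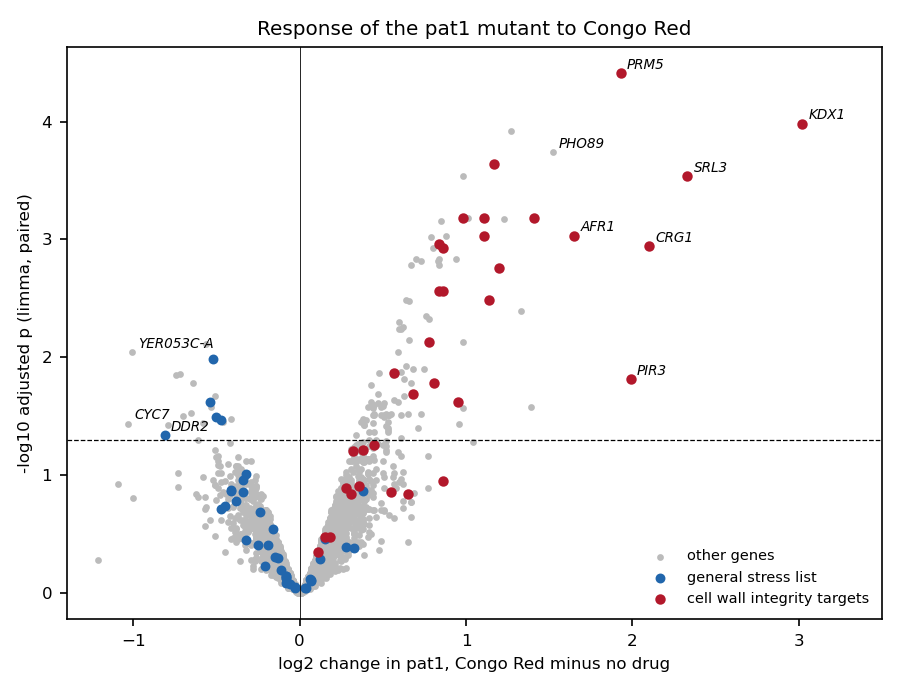
Change of each of the 5449 genes in the pat1 mutant with Congo Red (x axis, log2) against the strength of the paired limma test (y axis, -log10 of the adjusted p), with the dashed line at an adjusted p of 0.05. Red points are 34 targets of the cell wall integrity pathway, all to the right of 0, blue points are 40 general stress genes, and grey points are other genes.

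The pathway genes KDX1, SLT2 and RLM1 were among the largest changes. KDX1, which encodes a kinase-like relative of Slt2, read 6.78, 6.54 and 6.71 without drug and 10.41, 9.42 and 9.27 with Congo Red in samples 1, 2 and 3. The groups were separated by a wide gap, with the treated array of sample 1 the highest. The change was 3.02 ± 0.17 on the log2 scale (SE with the spread pooled over both strains, n = 3 pairs), an 8.13-fold rise (adjusted p = 0.000104). Samples 1, 2 and 3 rose by 3.63, 2.88 and 2.55. SLT2, the kinase at the end of the cascade, read 10.21, 10.27 and 10.13 without drug and 11.70, 11.54 and 10.78 with it. Sample 3 rose least, although its treated array still lay above every untreated one. The SLT2 change was 1.14 ± 0.14 (adjusted p = 0.00324, and 0.0524 without the block). RLM1, the transcription factor gene, went from 8.39, 8.86 and 8.60 to 9.78, 9.82 and 9.57, a change of 1.11 ± 0.10 (adjusted p = 0.000660). The kinase genes upstream of SLT2, named after their values were seen, did not pass. PKC1 had 0.1 (adjusted p = 0.678), BCK1 0.23 (0.266), MKK1 0.13 (0.682) and MKK2 0.17 (0.404).

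Of the 30 measured components of the pathway, 5 rose (16.7%, against 1.96% of all genes), none fell and 25 did not pass, with a median of 0.13. The other risers were PTP2, a phosphatase that acts on Slt2 and other kinases (0.86 ± 0.10), and the sensor gene MID2 (0.70 ± 0.07), which was named after its value was seen and had an adjusted p of 0.0667 without the block. MTL1, a sensor related to Mid2, had a change of 0.86 ± 0.23 (adjusted p = 0.111). Its untreated signal was 5.31, 6.82 and 6.47, so sample 1 started well below the other samples, and without it the change was 0.48 (adjusted p = 0.327). MSG5, another phosphatase of the cascade, had 0.37 (adjusted p = 0.145), and BAG7, which encodes a GTPase-activating protein for Rho1, had 0.65 (adjusted p = 0.145). Untreated BAG7 signal was 5.07, 4.06 and 4.66, close to the level of the deleted genes LEU2 and MET17, so the size of its change is uncertain.

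Targets of the cascade moved together. Of 34 measured cell wall integrity and Rlm1 targets, 22 rose (64.7%, against 1.96% of all genes), none fell and 12 did not pass. The median change was 0.85, against 0.041 over all genes. All 34 were higher with drug in each of the 3 samples, while 34.2% of all genes moved 1 way, up or down, in all 3. In 31 of the 34 the groups did not overlap, against 6.85% of all genes higher with drug. Without the block 16 rose, and 21, 18 and 21 rose without sample 1, 2 and 3. The median of the list was 1.06, 0.82 and 0.65 in samples 1, 2 and 3. The list was written from general knowledge of the pathway with earlier results of these arrays known, so its direction is no independent evidence. It includes 4 of the 5 pathway genes above (KDX1, SLT2, RLM1 and PTP2).

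Several of the strongest targets encode proteins outside the wall itself. SRL3 read 8.18, 8.16 and 8.43 without drug and 10.95, 10.57 and 10.22 with it, a change of 2.33 ± 0.17 (adjusted p = 0.000289). CRG1, a methyltransferase gene, went from 7.92, 7.61 and 8.38 to 10.49, 9.82 and 9.89, a change of 2.10 ± 0.21 (adjusted p = 0.00114). PRM5, which encodes a membrane protein also induced by pheromone, went from 9.70, 8.82 and 9.10 to 11.43, 10.94 and 11.03. In these 3 genes every treated array lay above every untreated array. The PRM5 change of 1.93 ± 0.09 had the lowest adjusted p of all genes (3.9e-05), and samples 1, 2 and 3 rose by 1.73, 2.12 and 1.93. AFR1, whose product shapes the mating projection, rose by 1.65 ± 0.16 (adjusted p = 0.000927). It was the 1 gene past the test among 33 genes of pheromone response and cell fusion (3.03%, against 1.96% of all genes), whose median was 0.13. YPK2, a kinase gene, rose by 1.11 ± 0.11, and PUN1, which encodes a plasma membrane protein, by 0.98 ± 0.08. These last genes were the 2 of 27 members of the eisosome, TORC2 and Ypk list that passed (7.41%, against 1.96% of all genes, median 0.04).

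**Figure D2:**
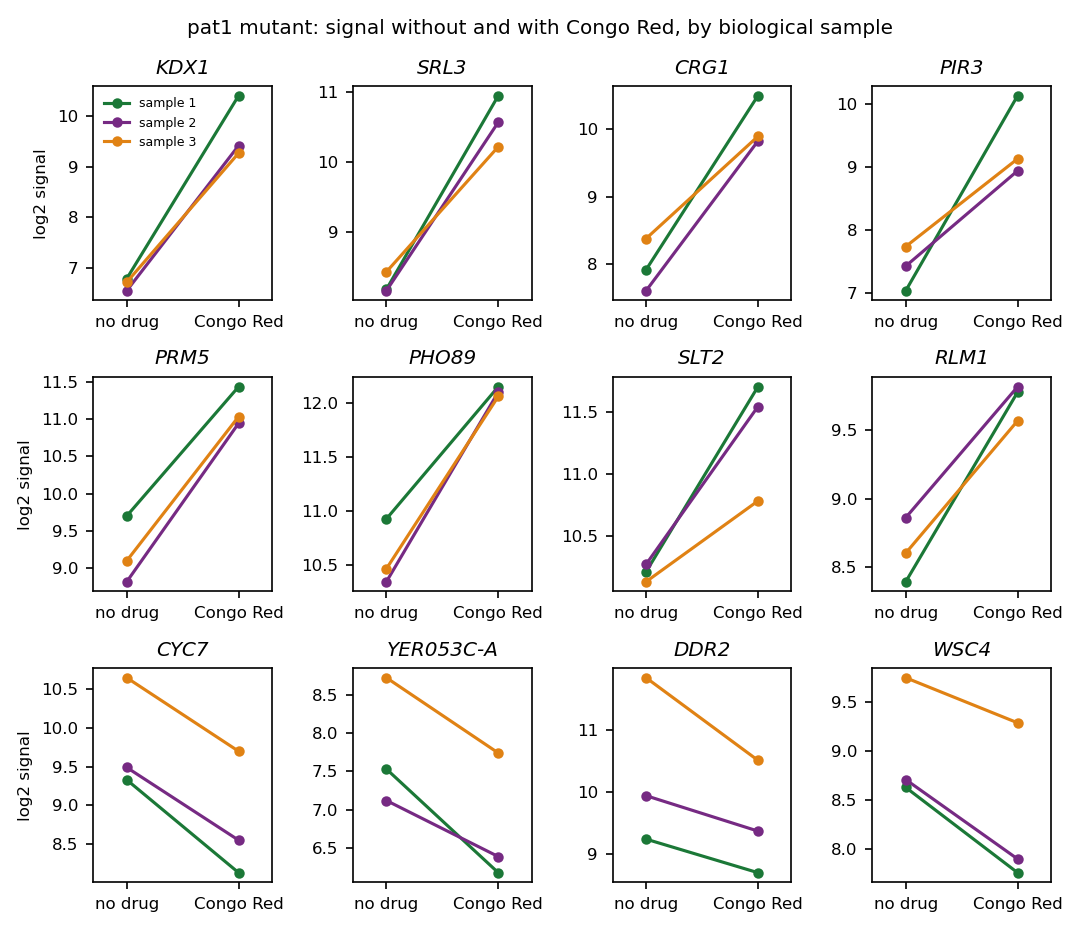
Log2 signal (y axis, a separate scale in each panel) of 12 genes without drug and with Congo Red in the pat1 mutant, with 1 line for each of the 3 biological samples. The 8 genes of the upper panels rose in every sample; the 4 genes of the lowest panels fell in every sample, while sample 3 stayed above the others both with and without drug.

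Structural wall proteins ranged from large rises to values short of the test. PIR3, a glucan-linked wall protein with internal repeats, read 7.04, 7.43 and 7.74 without drug and 10.13, 8.94 and 9.13 with it. The rise in sample 1 exceeded that in the other samples by far. The change was 1.99 ± 0.32 (adjusted p = 0.0154), 1.45 without sample 1 (adjusted p = 0.0116), and its call was lost without sample 2 (2.23, adjusted p = 0.0546). CWP1, a mannoprotein of the outer wall, went from 11.27, 11.43 and 12.03 to 12.76, 12.72 and 12.85 (1.20 ± 0.13, adjusted p = 0.00173). YPS3, an aspartic protease anchored at the surface, rose by 1.41 ± 0.12. PST1 (0.86 ± 0.09), DFG5 (0.84 ± 0.10), SED1 (0.68 ± 0.12) and HSP150 (0.57 ± 0.09) also rose. PST1 and SED1 lost their calls without the block (adjusted p = 0.260 and 0.125).

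The PIR relatives PIR1 and CIS3 did not pass. PIR1 read 12.30, 12.29 and 12.21 without drug and 12.37, 12.40 and 12.58 with it (0.18 ± 0.09, adjusted p = 0.337). CIS3 went from 13.08, 13.07 and 13.06 to 13.19, 13.19 and 13.29 (0.15 ± 0.08, adjusted p = 0.335). The mannoprotein gene CWP2 had 0.11 ± 0.07 (adjusted p = 0.448), and 0.06 without sample 1. These 3 genes were among the brightest of the list, with untreated signals above 12, on a scale that ended at 14.32. SED1 (12.27, 12.82 and 13.05 without drug) and HSP150 (12.50, 12.80 and 12.68) passed. Their untreated means were 12.71 and 12.66, against 12.27 for PIR1, 13.07 for CIS3 and 13.73 for CWP2. The part of brightness in these calls was not tested. Of the 34 measured genes for GPI-anchored and PIR wall proteins, 10 rose (29.4%, against 1.96% of all genes) and none fell, with a median of 0.21. Without the block 7 rose, and 7 of the 10 are also on the target list. The other 3, named after their values were seen, were the phospholipase gene PLB1 (0.78 ± 0.10), the yapsin gene YPS1 (0.76 ± 0.10) and CCW14 (0.49 ± 0.09). DAN1, a mannoprotein gene of anaerobic growth, had the lowest value of the list, -1.09 ± 0.30 (adjusted p = 0.119). Its untreated signal was 8.11 in sample 1, the sample with URA3 signal, and 4.49 and 4.05 in the others. Without sample 1 its change was -0.48 (adjusted p = 0.0811).

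Genes at several steps of chitin synthesis rose. GFA1, which opens the route to the chitin precursor, read 11.26, 11.12 and 10.93 without drug and 12.22, 11.89 and 11.71 with it (0.84 ± 0.08, adjusted p = 0.00109). PCM1, the mutase that acts later in the same route, went from 11.23, 11.47 and 11.39 to 12.48, 12.30 and 12.15 (0.94 ± 0.10, adjusted p = 0.00147). CHS3, the synthase that makes most wall chitin, went from 10.55, 10.93 and 10.65 to 11.67, 11.46 and 11.34 (0.78 ± 0.11, adjusted p = 0.00735). The groups did not overlap for any of these genes. CHS1, the synthase of septum repair, rose by 0.73 ± 0.08. CHS7 (0.66 ± 0.09) and CHS6 (0.56 ± 0.09), named after their values were seen, help Chs3 leave the endoplasmic reticulum and reach the plasma membrane. Other members of the list, also named after their values were seen, did not pass. Among them were GNA1 (-0.18, adjusted p = 0.455), QRI1 (-0.02, 0.938), CHS2 (0.04, 0.864) and CHS5 (0.23, 0.266). In all, 6 of 19 measured chitin genes rose (31.6%, against 1.96% of all genes), none fell, and the median was 0.23. The count was 5 without the block, where CHS6 was lost, and 6, 6 and 5 without sample 1, 2 and 3.

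Glucan genes gave 5 calls, most of which were lost when a sample was left out. GSC2, the glucan synthase subunit made under stress, read 10.73, 10.85 and 11.54 without drug and 11.94, 11.93 and 12.10 with it. The groups did not overlap, and sample 3 started higher and rose least. The change was 0.95 ± 0.17 (adjusted p = 0.0240), with an adjusted p of 0.0706 without the block, 0.0764 without sample 1 and 0.101 without sample 2. FKS1, the main glucan synthase subunit, had 0.28 ± 0.08 (adjusted p = 0.128). CRH1, which links chitin to glucan, rose by 0.81 ± 0.13. EXG2, an exoglucanase gene (0.47 ± 0.08), KRE6, a gene of beta-1,6-glucan synthesis (0.42 ± 0.09), and its fellow KNH1 (0.38 ± 0.07), named after its value was seen, completed the 5 risers. They were 5 of 32 measured genes (15.6%, against 1.96% of all genes), none fell, and the median was 0.21. None passed without the block, where 0 of 32 were called. In the paired fit 19 of the 32 were higher at an unadjusted p under 0.05, as were 699 of all 5449 genes. Only 1, 1 and 2 rose without sample 1, 2 and 3.

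Among 28 protein mannosylation genes, KTR2 and MNT4, both of them mannosyltransferase genes, rose and none fell, with a median of 0.10. These risers were 7.14% of the list, against 1.96% of all genes. KTR2 read 8.59, 8.0 and 8.36 without drug and 10.49, 9.18 and 9.28 with it (1.33 ± 0.17, adjusted p = 0.00403, and 0.0766 without the block). Sample 1 rose most. MNT4 rose by 0.79 ± 0.08.

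**Figure D3:**
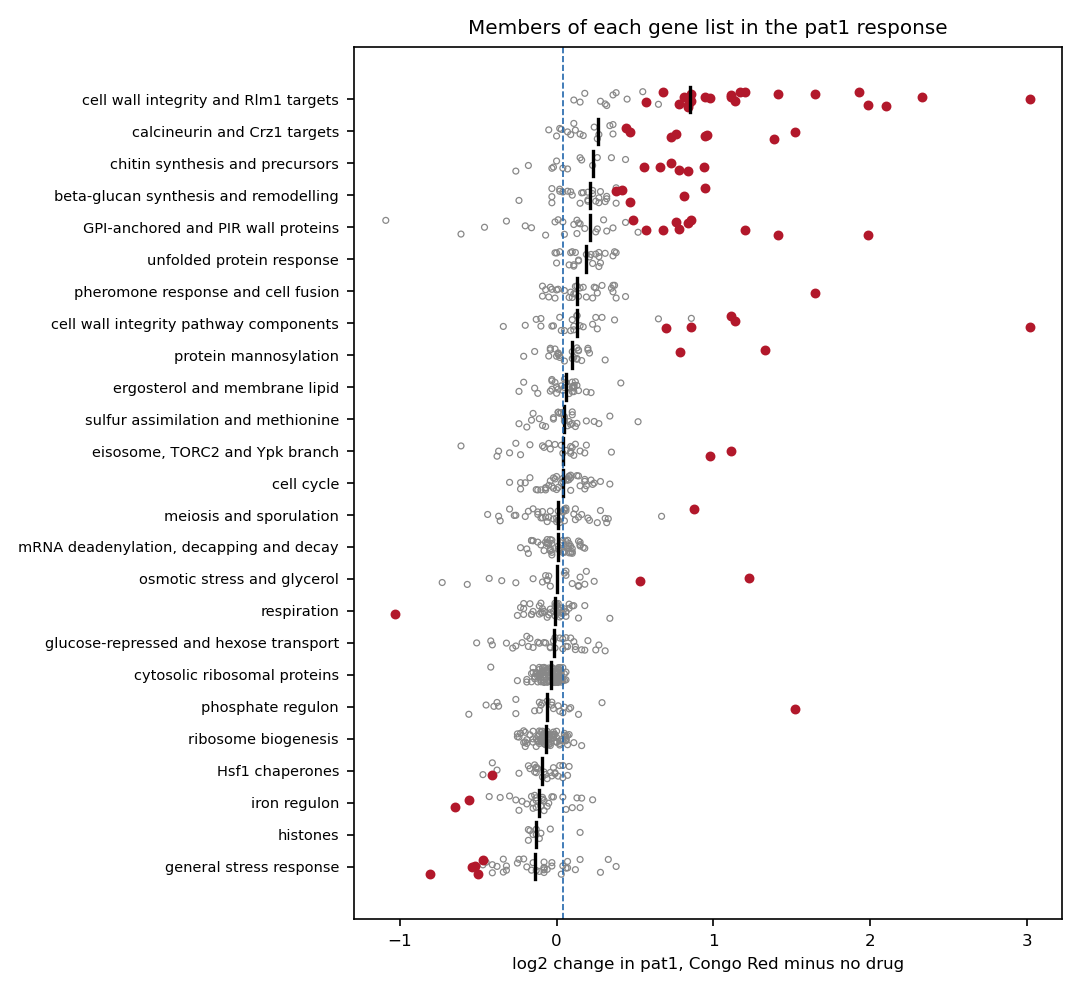
Log2 change in the pat1 mutant with Congo Red (x axis) of every measured member of 25 gene lists (y axis), ordered by median. Red filled points passed the paired limma test, open points did not, the black bar is the list median, and the dashed line is the median of all 5449 genes (0.041); the cell wall integrity targets stand highest, with a median of 0.85, and the general stress list lowest, with -0.14.

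Genes under the phosphatase calcineurin and its transcription factor Crz1, which respond to calcium, had 8 of 24 members higher and none lower. That is 33.3%, against 1.96% of all genes, and the median was 0.27. PHO89, a sodium and phosphate cotransporter gene, read 10.93, 10.35 and 10.47 without drug and 12.15, 12.10 and 12.06 with it. The treated arrays nearly coincided and lay well above all untreated ones. The change was 1.52 ± 0.10 (adjusted p = 0.000182). CMK2, a calmodulin-dependent kinase gene, went from 10.90, 9.53 and 9.65 to 11.26, 10.98 and 10.69 (0.96 ± 0.19, adjusted p = 0.0366). The groups overlapped, since the untreated array of sample 1 was high. DIA1, a gene of invasive growth, showed the same shape, from 10.05, 7.80 and 7.75 to 10.44, 9.73 and 9.59 (1.39 ± 0.25, adjusted p = 0.0265). Without sample 1, the sample with URA3 signal, DIA1 had 1.89 (adjusted p = 1e-05) and CMK2 had 1.25 (adjusted p = 0.00281). DIA1 passed neither without the block (adjusted p = 0.679) nor without sample 2 (0.107) or sample 3 (0.144), and CMK2 likewise did not (0.480, 0.120 and 0.158). The remaining risers were GSC2, CHS1 and YPS1, already described, the calcineurin subunit gene CMP2 (0.47 ± 0.08) and the sodium pump gene ENA5 (0.44 ± 0.08). CMP2 and ENA5 were named after their values were seen, and ENA5 is read by a probe set shared with related transcripts, so its value is uncertain. The count was 4 without the block and 5, 3 and 4 without sample 1, 2 and 3.

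PHO89 belongs to the phosphate regulon as well, and it was the 1 riser among 25 measured genes of that list, whose median was -0.06. That is 4.0% of the list, against 1.96% of all genes. The phosphate-responsive genes PHM6 (-0.56, adjusted p = 0.186), PHM7 (-0.45, adjusted p = 0.184) and PHM8 (-0.40, adjusted p = 0.187) had values on the other side. Without sample 1 these were -0.20, -0.21 and -0.21. In the osmotic stress list 2 of 24 genes rose (8.33%, against 1.96% of all genes), with a median of 0.01. HAL1, a halotolerance gene, went from 7.11, 7.19 and 7.09 to 8.52, 8.30 and 8.28 (1.23 ± 0.11, adjusted p = 0.000669), with tight groups on both sides. SMP1, a transcription factor gene, rose by 0.53 ± 0.11, a call lost without the block.

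Of 45 genes of meiosis and sporulation only IME2, a meiotic kinase gene, passed, and it rose (2.22%, against 1.96% of all genes). It read 7.25, 7.22 and 7.13 without drug and 8.12, 7.97 and 8.15 with it (0.88 ± 0.08, adjusted p = 0.000927). In the RefSeq gene table IME2 lies next to the uncharacterised gene YJL107C, and YJL107C next to PRM10, which encodes a membrane protein. All 3 rose, PRM10 by 1.17 ± 0.08 and YJL107C by 1.01 ± 0.09. Neither PRM10 nor YJL107C passed without the block (adjusted p = 0.275 and 0.722), and their sample 3 started lower than the others. Such pairs of adjacent genes that both rose numbered 6 of 5433 measured neighbours (0.110%). The others were PCA1 with PHO89, YPS1 with YPS3, PUN1 with YLR415C, and YNL058C with OCA2, all named for their position after their values were seen.

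The 19 falls had another character. CYC7, the cytochrome c isoform of low oxygen, read 9.33, 9.49 and 10.65 without drug and 8.13, 8.55 and 9.70 with it. The samples fell by similar amounts, but sample 3 with drug lay above the other samples without it, so the groups overlapped. The change was -1.03 ± 0.20, a 2.04-fold fall (adjusted p = 0.0365). It was lost without sample 1 (adjusted p = 0.120), sample 2 (0.106) or sample 3 (0.139). The small gene YER053C-A fell by 1.01 ± 0.15 (adjusted p = 0.00903), a call lost without sample 3 (adjusted p = 0.0582). WSC4, a relative of the wall sensors, went from 8.63, 8.71 and 9.75 to 7.76, 7.90 and 9.29 (-0.72 ± 0.11, adjusted p = 0.0138). It was the only gene of the Wsc and Mid families that fell. None of the 19 passed in the fit without the block, in which 305 genes had an unadjusted p under 0.05. Only IZH4 of the 19 passed whichever mutant sample was left out. Its adjusted p was 0.0216, 0.042 and 0.0358 without sample 1, 2 and 3.

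Of 40 general stress genes, which answer to the factors Msn2 and Msn4, 5 fell (12.5%, against 0.349% of all genes), none rose, and the median was -0.14. DDR2, a stress gene of unclear function, went from 9.24, 9.94 and 11.84 to 8.70, 9.37 and 10.51 (-0.81 ± 0.17, adjusted p = 0.0454). CTT1, the cytosolic catalase, went from 8.63, 8.46 and 9.98 to 7.86, 8.14 and 9.44 (-0.54 ± 0.10, adjusted p = 0.0240). GSY1, a glycogen synthase gene, went from 10.84, 10.79 and 10.99 to 10.32, 10.39 and 10.38 (-0.52 ± 0.08, adjusted p = 0.0104). Groups did not overlap for GSY1, but for DDR2 and CTT1 sample 3 stood above the rest. PGM2, a phosphoglucomutase gene, fell by 0.50 ± 0.10, and the secreted stress protein gene YGP1, named after its value was seen, fell by 0.47 ± 0.09. The mean signal of the list was 10.09, 10.09 and 10.82 without drug and 9.90, 9.94 and 10.66 with it, so the untreated and treated arrays of sample 3 were both high. The part of that difference between samples in these calls was not tested. The count was 0 without the block, and 3, 3 and 1 without sample 1, 2 and 3.

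Other falls were of genes with varied roles. IZH4 (-0.74 ± 0.12) and IZH1 (-0.70 ± 0.13), membrane proteins linked to zinc, fell. In the iron regulon 2 of 32 genes fell (6.25%, against 0.349% of all genes) and none rose (median -0.11). The fallers were FIT2, a wall mannoprotein that helps retain iron (-0.65 ± 0.12), and FRE5, a putative iron reductase gene (-0.56 ± 0.08). Among 29 Hsf1 chaperone genes only SSA1, a cytosolic Hsp70, passed (3.45%, against 0.349% of all genes lower). It went from 12.23, 12.04 and 11.82 to 11.74, 11.72 and 11.40 (-0.41 ± 0.08, adjusted p = 0.0332), with no overlap of groups. The SSA1 call was lost without sample 1 (adjusted p = 0.14), sample 2 (0.074) or sample 3 (0.124). The chaperone genes HSP26 and HSP104 (both -0.41, adjusted p = 0.134 and 0.136) and HSP42 (-0.47, adjusted p = 0.195) did not pass. Without sample 1 their changes were -0.30, -0.20 and -0.15. ICY1 (-0.79, and -0.51 with an adjusted p of 0.0505 without sample 1), YRO2 (-0.64), BDH2 (-0.58), BNS1 (-0.53), THI7 (-0.51), a thiamine transporter gene, and EFG1 (-0.46) made up the rest, EFG1 being named after its value was seen.

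**Figure D4:**
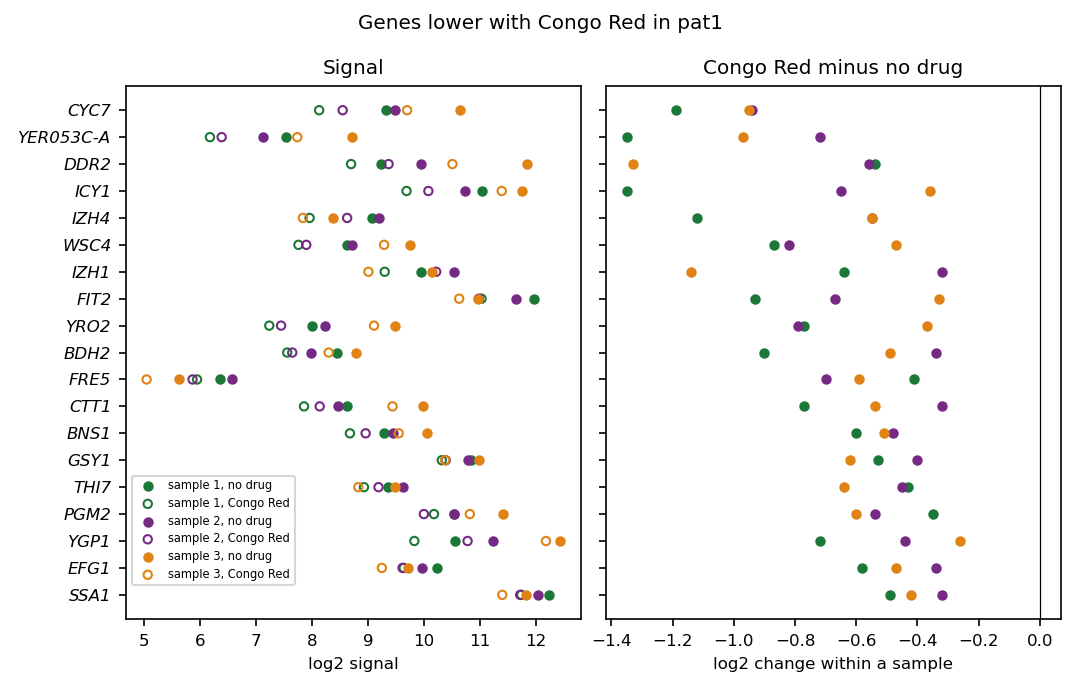
The 19 genes that fell with Congo Red in the pat1 mutant, with log2 signal on each array at left (x axis; filled points without drug, open points with drug, 1 colour per biological sample) and the log2 change within each sample at right. Every change is below 0, while the signals of the groups overlap for all but 4 genes (GSY1, THI7, EFG1 and SSA1).

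Many gene groups showed no call in the mutant. Of 81 ribosome biogenesis genes and 106 cytosolic ribosomal protein genes none passed, with medians of -0.07 and -0.04, and 1 and 4 of them were lower at an unadjusted p under 0.05. None of 25 unfolded protein response genes passed in limma, although 24 of 25 had values above 0, the median was 0.19 and 12 were higher at an unadjusted p under 0.05. Of all 5449 genes, 3341 were above 0, and 699 were higher and 258 lower at an unadjusted p under 0.05. No member passed among 43 cell cycle genes (5 higher and 2 lower at an unadjusted p under 0.05), 10 histone genes (0 and 2), 49 genes of mRNA deadenylation, decapping and decay (1 and 1), 33 of ergosterol and membrane lipids (2 and 2), 36 of glucose repression and hexose transport (4 and 3) and 29 of sulfur assimilation (3 and 2). Of 48 respiration genes CYC7 alone passed (2.08%, against 0.349% of all genes lower). With arrays centred on their medians or scaled by cyclic loess, the median over all genes moved from 0.04 to -0.01, and the small positive medians of the osmotic stress, meiosis, cell cycle, mRNA decay and eisosome lists turned negative. Centring turned the sulfur list's 0.05 to 0.00 as well. These scalings and repeated quantile normalization left 75.0%, 73.2% and 75.2% of the genes past the test higher, in that order, against 84.9% in the values as deposited.

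Of the 107 genes that rose, 64 were in none of the 25 lists, and those below other than YNL058C, FLC2 and ASK10 were named after their values were seen. YNL058C, an uncharacterised gene (1.27 ± 0.08), FLC2, a membrane transporter gene (1.10 ± 0.10), and ASK10, a regulator of the glycerol channel (0.98 ± 0.07), were among the 20 largest rises. The genes that follow are named singly, and no list of their functions was counted. They include the GTPase-activating proteins MSB3 (0.56) and MSB4 (0.65), the actin regulators VRP1 (0.61) and ARK1 (0.60), and the myosin gene MYO3 (0.49). Further risers were the potassium transporter genes KHA1 (0.55) and KCH1 (0.45), the calcium uptake gene ECM7 (0.53) and PPZ1 (0.63), a phosphatase of salt tolerance. SSK22, a kinase of the osmotic cascade, rose by 0.84 ± 0.09, and PRB1, a vacuolar protease gene, by 0.54 ± 0.10. Of the genes just named, YNL058C, FLC2 and ASK10 passed without the block, and the others lost their calls. Of those others, MSB4, MYO3, KHA1, KCH1 and ECM7 also lost their calls whichever mutant sample was left out, while ARK1 and SSK22 kept theirs each time. Of the 107, 11 carry only a systematic name (10.3%, against 9.16% of all genes). Just inside the threshold stood RAD7 (0.61, adjusted p = 0.0480), VPS27 (0.34, 0.0454) and DDR2, and just outside DBF2 (0.42, 0.0504), SPT14 (0.46, 0.0507) and TIR1 (-0.61, 0.0507).

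The 3 samples did not respond alike in size. Across all genes the within-sample changes correlated at 0.50 between samples 1 and 2, 0.27 between 1 and 3 and 0.38 between 2 and 3, against 0.70 to 0.89 in wild type. Genes are not independent, and these values only describe the arrays. The SD of the change over all genes was 0.35, 0.19 and 0.26 in samples 1, 2 and 3, and its median was 0.032, -0.011 and 0.12. The 107 risers, chosen on these same values, had medians of 0.77, 0.56 and 0.66, and the 19 fallers -0.72, -0.54 and -0.54.

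Most genes that rose in the mutant rose in wild type too. In the same fit 769 genes (14.1%) passed in wild type, 448 higher (8.22%) and 321 lower (5.89%). That count was 146 without the block and 383, 417 and 154 without wild type sample 1, 2 and 3. The treated array of wild type sample 2 read 7.71 for URA3. Of the 107 genes that rose in the mutant, 104 rose in wild type, which is 97.2% of the mutant's risers and 23.2% of those of wild type. Of the 19 that fell, 10 fell in wild type (52.6% and 3.12%), and none of the 126 changed in opposite directions past both tests. Among the 104 shared risers 95 had the smaller change in the mutant, with medians of 0.65 in the mutant and 0.89 in wild type. Of the 19 genes that rose at least 2-fold in the mutant, 18 had a larger change in wild type, PHO89 being the exception. The changes of the 2 strains correlated at 0.68 across genes. For 68 genes that rose at least 2-fold in wild type, a choice made on wild type values, the median was 1.44 there and 0.80 in the mutant, where 44 passed and all 68 were above 0.

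**Figure D5:**
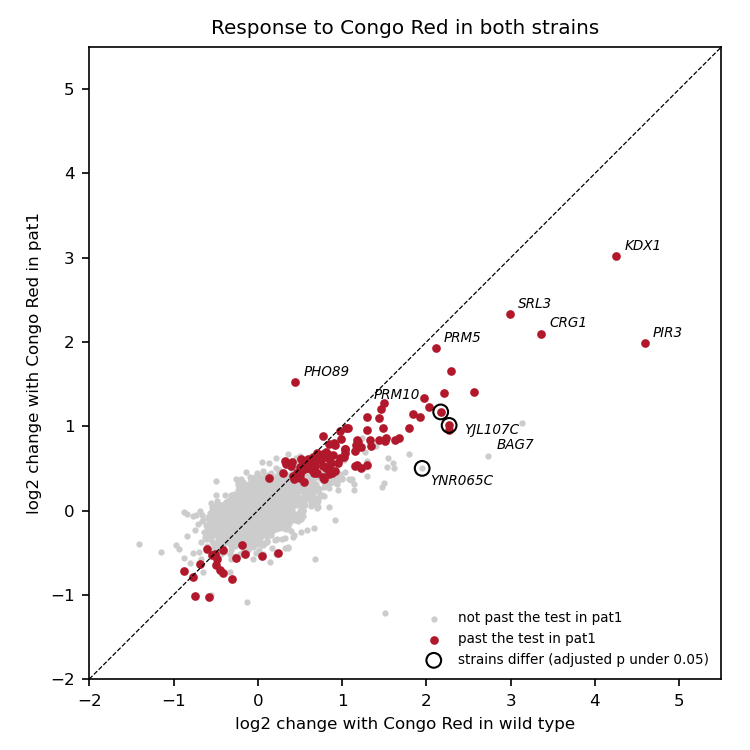
Log2 change with Congo Red of each gene in wild type (x axis) and in the pat1 mutant (y axis), with the dashed line where both are equal. Red points passed the test in the mutant, grey points did not, and black circles mark the 3 genes whose response differed between strains; most genes that rose lie below the line, while PHO89 lies above it.

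The difference between the responses passed the test in 3 genes (0.0551%), and in each the rise was smaller in the mutant. YJL107C rose from 6.81, 6.64 and 6.10 to 7.74, 7.65 and 7.19 in the mutant, by 1.01, and by 2.27 in wild type. The difference was -1.26 (95% interval -1.54 to -0.98, adjusted p = 0.0199). Its neighbour PRM10 went from 7.93, 7.78 and 7.19 to 9.10, 9.04 and 8.26 in the mutant, by 1.17 against 2.17 in wild type, a difference of -1.0 (-1.26 to -0.74, adjusted p = 0.0353). YNR065C, which encodes a protein related to a sorting receptor, went from 9.38, 8.54 and 8.52 to 10.11, 8.87 and 8.95. Its change of 0.50 ± 0.13 did not pass in the mutant (adjusted p = 0.0952), against 1.95 in wild type, a difference of -1.45 (-1.86 to -1.04, adjusted p = 0.0430). With the sample as a random block only YNR065C of the 3 passed. No difference passed without the block, or without mutant sample 2 or 3 or wild type sample 2 or 3. At an unadjusted p under 0.05 there were 659 genes (12.1%), 243 (4.46%) with the lower and 416 with the higher change in the mutant.

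Other wide gaps between the strains did not pass that test. PIR3 had 1.99 in the mutant and 4.59 in wild type, a difference of -2.60 (95% interval -3.63 to -1.57, adjusted p = 0.122). GSC2 had 0.95 against 2.27 (-1.32, -1.85 to -0.78, adjusted p = 0.130), and KDX1 had 3.02 against 4.25 (-1.23, -1.79 to -0.67, adjusted p = 0.161). Mean GSC2 signal went from 11.04 to 11.99 in the mutant and from 9.5 to 11.77 in wild type. GSC2 thus started higher in the mutant and was no lower there with drug. Mean treated signal was lower in the mutant for PIR3 (9.4 against 11.14) and KDX1 (9.7 against 10.93). BAG7 had 0.65 against 2.73, but its untreated wild type signal was 3.75, 3.93 and 3.99, the level of the deleted genes LEU2 and MET17 on those arrays (3.66 to 4.08), so no size is given for its difference. PHO89 went the other way, with 1.52 in the mutant and 0.44 in wild type (1.08, 0.76 to 1.41, adjusted p = 0.0505). Its untreated signal was 10.35 to 10.93 in the mutant and 12.41 to 12.59 in wild type, and the treated signals came to 12.06 to 12.15 and 12.83 to 13.01. Over all 5449 genes, 2006 had the lower change in the mutant and 3443 the higher. The list of 34 targets had a median of 0.85 in the mutant and 1.31 in wild type. There 32 of the 34 rose, against 448 of all 5449, and 30 of the 34 changes were smaller in the mutant.

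The genes whose call differed between strains need the same test. GPI18, KHA1 and CTL1 rose in the mutant and did not pass in wild type, but their differences were 0.27 (-0.06 to 0.61), 0.22 (-0.11 to 0.55) and 0.26 (0.01 to 0.51), with adjusted p = 0.464, 0.534 and 0.397. Among general stress genes 37 of 40 had a lower change in the mutant, as did 2006 of all 5449, with medians of -0.14 and 0.14. There 10 rose and 1 fell in wild type, against 448 and 321 of all 5449. No difference of the general stress list passed, with 17 at an unadjusted p under 0.05, against 659 of all 5449. PGM2 had -0.50 in the mutant and 0.24 in wild type, a difference of -0.74 (-1.04 to -0.43, adjusted p = 0.130), and CTT1 had -0.54 and 0.05 (-0.59, -0.89 to -0.28, adjusted p = 0.210). Both genes started higher in the mutant and stayed higher there with drug. Mean PGM2 signal went from 10.83 to 10.33 in the mutant and from 9.57 to 9.81 in wild type. For CTT1 it went from 9.02 to 8.48 and from 7.11 to 7.16. In ribosome biogenesis all 81 genes had a higher change in the mutant, as did 3443 of all 5449. The mutant's median was -0.07 against -0.36 in wild type, where 47 of the 81 fell, against 321 of all 5449. No difference passed, and 37 had an unadjusted p under 0.05, against 659 of all 5449. In wild type the list's median was -0.23, -0.34 and -0.55 in samples 1, 2 and 3, and in the mutant -0.10, -0.13 and 0.09.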

How the data were processed

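The authors deposited 1 table of log2 values for 12 Affymetrix arrays, summarised per probe set with RMA per the submitters' processing notes (version not stated); the values ran from 2.33 to 14.32 and were used as deposited. Of 5739 probe sets, 23 were controls and 218 had no listed gene. The other 5498 were named through the platform annotation and the RefSeq gene table of assembly R64 (12 symbols updated). For 47 genes the brightest of several probe sets was taken, leaving 5449 genes, 114 of them on probe sets that related transcripts may share. The build behind the authors' table is not named in the labels or files, so coordinates are left out, and promoter sequences were not used here.

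Limma 3.58.1 in R 4.3.3 (lmFit, eBayes) was fitted to all 12 arrays with 6 blocks of strain and replicate number (4 residual degrees of freedom, prior 4.82), with Python 3.11.15 and pandas 2.3.3 for the rest. Tests were two-sided, with Benjamini-Hochberg adjustment over 5449 genes at 0.05. SE, intervals and p come from this moderated fit. The pairing follows the series' design text, which ties 1 untreated and 1 treated array to each biological sample. It was checked on deviations from group means: arrays of the same number correlated at 0.616, 0.732 and 0.668 in pat1 (highest value with another number -0.201) and at 0.648, 0.801 and 0.782 in wild type (0.231). Nothing says beyond this how far the samples were separate cultures, so p-values measure the spread between these samples. That spread was pooled over both strains, so a gene had the same SE in each (0.17 for KDX1). The SE therefore does not measure the spread of the mutant pairs alone. Arrays have no read depth; their number limits the precision.

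Named genes were PAT1, the 20 largest rises and 15 largest falls past the test with 3 pairs of the same sign, all 34 measured cell wall integrity targets, up to 4 members of each other list, the differences past the test, and strain markers; other names are marked. The members and all 25 lists were chosen with earlier results of these data known. Lists hold 955 entries, 23 of them unmatched, and some share genes. Alternatives were no block, a random block, the pat1 arrays alone, centring, quantile and cyclic loess scaling, no dim genes, trend, robust and weighted fits, mean of probe sets, other thresholds, and each sample left out. The steps were tested on simulated data.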

Additional observations from a re-analysis of the deposited data

Results flagged for a closer look

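YJL107C stood out because its rise with Congo Red differed between the strains by a test of the difference itself, -1.26 in the pat1 mutant relative to wild type. PRM10, its neighbour, differed by -1.0 in the same test. YNR065C differed by -1.45.

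Among 218 probe sets with no listed gene, which the comparisons above do not use, 9 passed the same test in the mutant. That is 4.13%, against 2.31% of the 5449 genes. All 9 were higher with Congo Red, and 8 of the 9 were also higher in wild type, as were 104 of the 107 genes that rose. The largest change among the 9 was 2.01 ± 0.28 (adjusted p = 0.00701), from 10.05, 7.48 and 7.56 without drug to 10.93, 10.14 and 10.07 with it. Its untreated signal was high in sample 1, the sample with URA3 signal. The next was 1.54 ± 0.14 (adjusted p = 0.000631), from 10.01, 9.5 and 9.79 to 11.67, 11.35 and 10.90. Their genes are not listed in the annotation used.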

How the results depend on the processing

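The count of 126 genes in the mutant became 36 with no replicate block, 79 with the 6 pat1 arrays alone, 214 with a variance trend, 48 at an adjusted p under 0.01, 21 at 2-fold and 220 at an adjusted p under 0.1; leaving out 1 sample gave 72 to 113. The 3 differences between strains became 0 with no replicate block or cyclic loess, 1 with centring, 11 with a random block (1 of the 3 among them, YNR065C), 7 without dim genes (YNR065C among them, while PRM10 and YJL107C were then not tested), 21 with a trend, 5 with robust fitting, 29 with array weights, 5 with mean probe sets, 0 at an adjusted p under 0.01 and 11 at 0.1; samples left out gave 0 to 10. The 769 wild type genes became 146 with no replicate block, 1673 with array weights, 281 at an adjusted p under 0.01, 70 at 2-fold and 1156 at 0.1; samples left out gave 154 to 1044. The cause of these shifts was not tested. Over 142 named genes, 2380 values were recomputed: none changed direction with a call, 2183 stayed on their side of the threshold, 151 lost their call and 46 gained one. In all 17 refitted alternatives 23 of 55 called named genes passed, among them KDX1, SRL3, CRG1, PRM5, PHO89, RLM1, GFA1, PCM1, CHS3 and IME2. None of the 19 falls passed with no replicate block. Signal over background was not analysed here.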
